A study of Mus musculus with 28 samples.

Results

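Late-closing regions are stretches of DNA that were open in mouse embryonic fibroblasts (MEFs), were still open in most libraries at day 5 of reprogramming, and were no longer called open in most libraries at day 10. They were selected on the peak calls themselves. Overlapping peaks of all 28 libraries on chromosomes 1 to 19 and X were merged into regions, with 1 overlapping peak enough for a library to call the region. The rule took regions called in 4 of 4 MEF libraries, in at least 8 of 12 day 5 libraries and in at most 2 of 12 day 10 libraries. It found 546 regions among 109954 regions called in at least 2 libraries, which is 0.497% of them. Of the 27904 regions called in 4 of 4 MEF libraries (MEF-open regions), 1.96% were late-closing. "Closed" here means only that a peak was not called.

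Fibroblast identity is held in part by enhancers, stretches of DNA that are kept open by transcription factors of the mesenchymal cell and that act on genes at a distance. In reprogramming, the factors Oct4, Klf4, Sox2 and Myc (OKSM) are switched on, many fibroblast enhancers lose their open state and pluripotency enhancers gain it over days. TET2 oxidises 5-methylcytosine, the methyl mark of DNA, in steps that can lead to its removal. The series calls its mutant Tet2-E a stalling mutant, and what that mutant does to each step is not described in the labels.

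The assay was ATAC-seq: a transposase inserts sequencing adapters wherever DNA is accessible, and open stretches then show as peaks of fragments. All cells were Tet2-/- and carried doxycycline-inducible OKSM with rtTA, from embryos of embryonic day 12.5 on the strain background V6.5 129XBI/6. The 7 groups held 4 libraries each. Of these, 6 groups, as Tet2-E, Tet2-WT and Empty vector at day 5 and at day 10, were MEFs transduced with the pMXs retrovirus carrying the stalling mutant, the wild-type enzyme or no insert. These cells were grown on Mito-C-treated feeder MEFs in medium with LIF, PD0325901, CHIR99021 and doxycycline, and were isolated by flow sorting on SSEA1-RFP. The remaining group was untreated MEFs, which the series' design text places at day 0, with no isolation step named. The change of medium, the feeder cells, the virus and the sort all came between the MEFs and day 5, and these cannot be told apart from the time in reprogramming. Chromatin from feeder cells in the sorted samples was not measured. The labels do not say that replicates were separate cultures or embryos, so p-values measure the spread between libraries, which may be technical. A peak lost through fewer cells with the region open and one lost through less opening per cell cannot be told apart in such bulk samples. The labelled cell type was not checked against marker genes, because no gene annotation of mm9, the build of the peak lists, was used here.

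The lists held 41450 to 72332 peaks in MEFs, 41580 to 60361 at day 5 and 27918 to 50733 at day 10. Relative depth was read from each list as its background pileup, the number of fragments expected at a position of the genome. It was 0.394 to 0.660 in MEFs, 0.746 to 1.04 at day 5 and 0.361 to 0.768 at day 10. Day 5 was thus the deepest stage in all but 1 comparison of single libraries, the exception being Tet2-E day 10 replicate 1 at 0.768 against Empty vector day 5 replicate 2 at 0.746. Depth moved with the selection, since the rule asked for calls at day 5 and for their absence at day 10.

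Late-closing regions formed a thin band between the main fates of MEF-open regions. Of the MEF-open regions, 14113 were called in at least 8 of 12 day 5 libraries. Among these 14113, the late-closing regions made up 3.87%, while 11579 were called in at least 8 of 12 day 10 libraries and are termed kept regions. A further 1988 lay between, in 3 to 7 of 12 day 10 libraries. A separate set of 6382 MEF-open regions had no peak in any day 5 or day 10 library (0 of 12 each) and is termed closed by day 5.

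**Figure D1:**
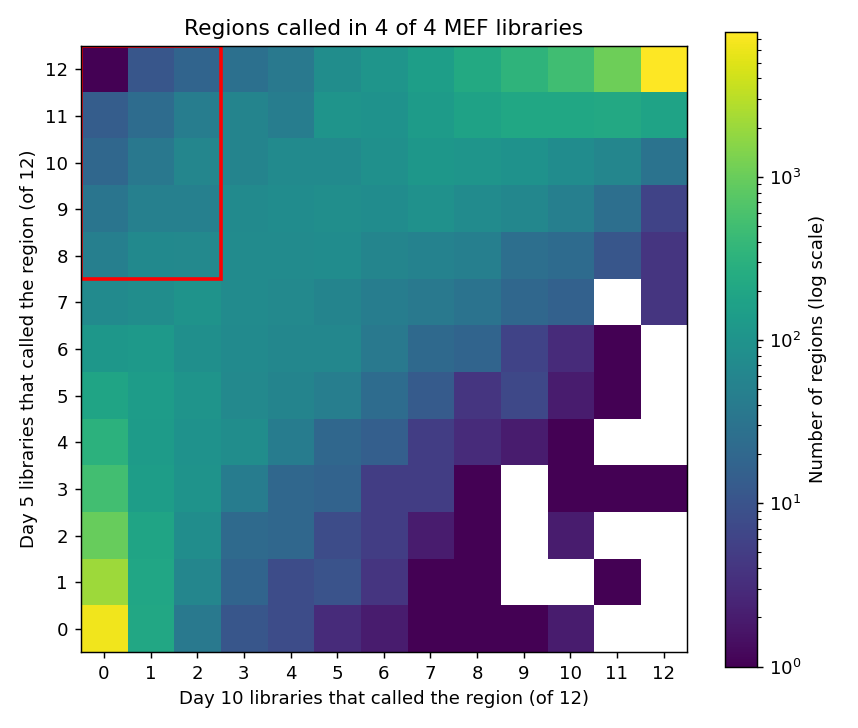
Number of MEF-open regions (colour, log scale; white cells hold none) by how many of 12 day 10 libraries (x axis) and of 12 day 5 libraries (y axis) called them, with the late-closing box outlined in red. Most regions sit in the corners for closed by day 5 and for called throughout, and the outlined box holds 546 of 27904 regions.

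Within the box, regions gathered at its inner edges. By day 5, 184 late-closing regions were called in 8 libraries, 132 in 9, 118 in 10, 82 in 11 and 30 in 12. By day 10, 115 were called in 0 libraries, 189 in 1 and 242 in 2. Just outside, 252 regions met the day 10 limit with 7 of 12 day 5 libraries, and 285 met the day 5 limit with 3 of 12 day 10 libraries. The numbers run smoothly across both limits, so the box is a range of a continuum and not a separate class. Only 1 region combined calls in 12 of 12 libraries at day 5 with calls in 0 of 12 at day 10.

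That region was chr11:104222915-104223432 (mm9, 518 bp). Its fold, the authors' ratio of summit pileup plus 1 to local background plus 1, was 13.2, 11.1, 14.3 and 11.2 in the MEF libraries. At day 5 the fold was 6.56, 8.80, 6.14 and 7.29 in Tet2-E, 5.50, 5.76, 8.33 and 5.96 in Tet2-WT, and 5.71, 5.73, 10.9 and 6.32 in Empty vector. No day 10 library called it. The folds belong to lists of different depth and are given as descriptions. Within its own lists the region stood at the 90.5 percentile by fold in MEFs (median of 4 libraries) and at the 48.2 percentile at day 5 (median of 12). Its day 5 summit lay 3.5 bp from its MEF summit, both taken as medians over libraries.

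Per library, the 546 regions were called as follows. All were called in each MEF library, as the rule required. At day 5, Tet2-E libraries called 418, 491, 312 and 373 of them, Tet2-WT libraries 431, 408, 484 and 481, and Empty vector libraries 346, 378, 505 and 475. At day 10, Tet2-E libraries called 109, 70, 27 and 17, Tet2-WT libraries 97, 83, 37 and 26, and Empty vector libraries 84, 46, 53 and 24. The lower mean at day 10 follows from the rule. The libraries of the days did not overlap, and the spread inside a day was wide. For all 27904 MEF-open regions the days did not overlap either, with 50.1 to 61.8% called at day 5 and 39.8 to 49.7% at day 10.

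At day 10 the count of calls moved with depth. Summed over the 3 vectors, libraries numbered 1 made 290 calls of late-closing regions, those numbered 2 made 199, those numbered 3 made 117 and those numbered 4 made 67. Their background pileups ran from 0.506 to 0.768 for number 1, 0.495 to 0.636 for number 2, 0.466 to 0.532 for number 3 and 0.361 to 0.420 for number 4. The pair of libraries closest in depth across the days is given as a description. Tet2-E day 10 replicate 1 (background 0.768, 45871 peaks) called 109 late-closing regions, or 19.96%, and 49.7% of all MEF-open regions. Empty vector day 5 replicate 2 (background 0.746, 44357 peaks) called 378, or 69.2%, and 50.8% of all MEF-open regions. The libraries of this pair differ in vector, and both took part in the selection. Their gap in late-closing regions therefore follows at least in part from the rule, and the part of depth in it was not tested.

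**Figure D2:**
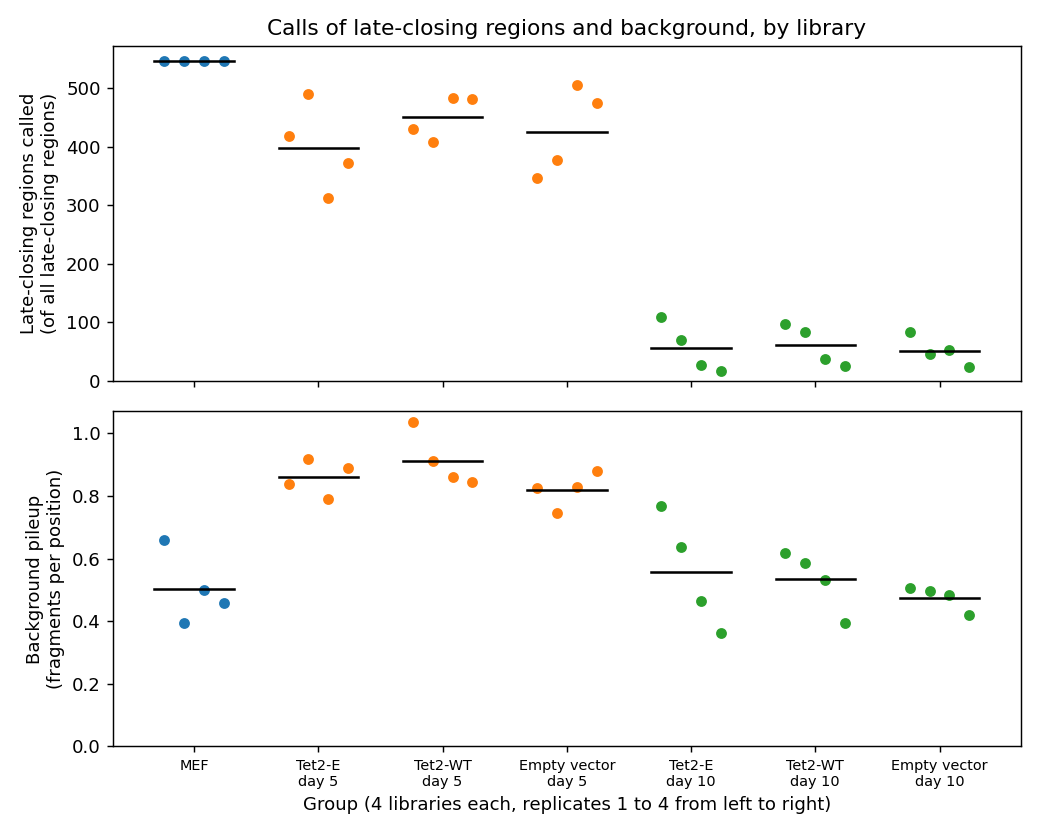
Upper panel, late-closing regions called by each library, of 546 in all; lower panel, background pileup of the same library in fragments per position. Points are libraries and bars are means of 4: day 5 libraries called 312 to 505 regions and day 10 libraries 17 to 109, and within each vector at day 10 replicate 4 is lowest in both panels.

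The exact tests over all regions give the scale of change that surrounds these calls. Between day 5 and day 10, 835 of 83195 regions (1.00%) were called less often later, in an exact conditional test with vector as stratum and Benjamini-Hochberg adjustment, and 120 were called more often. Of the 546 late-closing regions, 120 (22.0%) were past the threshold of 0.05, with adjusted p over the 546 between 0.0135 and 0.381. Without any 1 replicate number, 0 regions passed (lowest adjusted p 0.100 to 0.172 in the exact conditional test, with 5183 to 7002 regions at an unadjusted p under 0.05). Leaving out a number also raises the lowest p this test can give, so the 0 does not show that the changes rest on that number. With the same number of peaks in each library, 124 regions were called less often later and 133 more often, and losses made up 48.2% of the changes, beside 87.4% with all peaks. Between MEF and day 5, 16.1% of 99090 regions were called less often at day 5 by Fisher's exact test, and 0 late-closing regions were, with 0 also at an unadjusted p under 0.05. Between MEF and day 10, 22.6% of 89226 regions were called less often at day 10, and all 546 late-closing regions were. The rule used all 3 contrasts, so these member counts follow from the selection and are read as nothing more.

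The height of the peaks was not used by the rule. Peaks were ranked by fold within their own list, so that 100 is the strongest peak of a library. In MEFs the median percentile of the late-closing regions was 72.1 to 83.0 over the 4 libraries. That was above the regions closed by day 5, at 55.1 to 74.2, in each of the 4 libraries, by 12.9 percentiles on average (SD of the difference 3.34). An exact 2-sided sign-flip permutation test over the 4 libraries gave the smallest p that 4 libraries allow (adjusted p = 0.143 over 8 tests), which cannot pass the threshold. Against kept regions, at 70.3 to 79.8, the late-closing regions were higher in 3 of 4 libraries by 1.35 percentiles on average (SD 1.44; exact p = 0.25). This last difference was within the spread between libraries.

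At day 5 they ranked low. Where called, late-closing regions had a median percentile of 31.5 to 52.2 over the 12 day 5 libraries, with a median over libraries of 41.9. Kept regions stood at 76.1 to 83.1 in the same lists. The lowest day 5 value came from Tet2-E replicate 3, which also called the fewest late-closing regions, 312. In the few day 10 libraries that called a given region, the median percentile was 21.8 to 36.9 for late-closing regions and 72.8 to 81.3 for kept regions. A region near the calling limit is missed by some libraries, so the rank at day 5 and the number of calling libraries are linked, and these ranks carry no test. Ranks from lists of different lengths show no change between days.

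**Figure D3:**
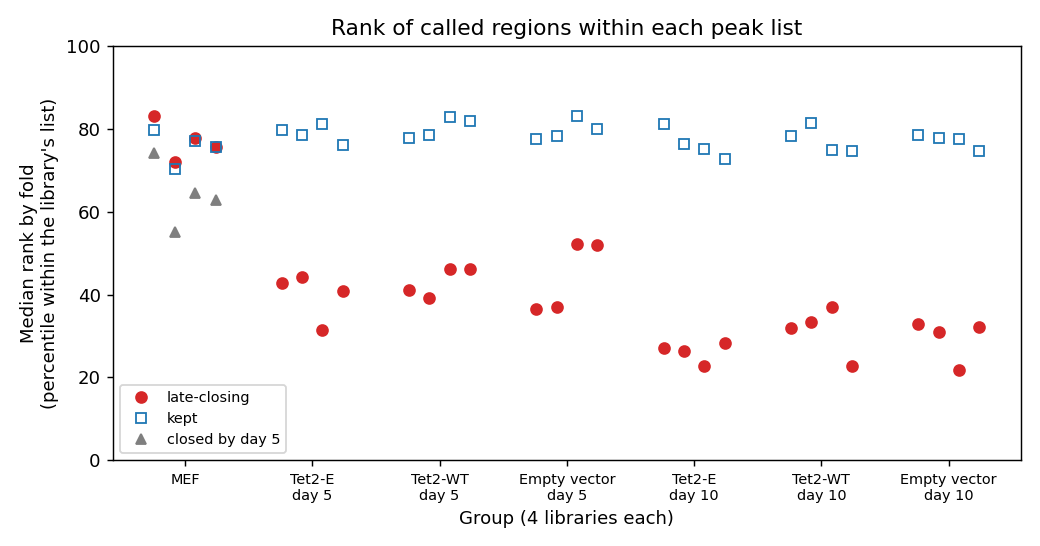
Median percentile by fold within each library's own list (y axis, 100 is the strongest peak) for late-closing regions (red circles), kept regions (open blue squares) and regions closed by day 5 (grey triangles, MEF lists only). In MEFs the late-closing regions lie at 72.1 to 83.0 beside kept regions at 70.3 to 79.8; at day 5 they lie at 31.5 to 52.2, below kept regions at 76.1 to 83.1 in every library.

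Region by region, 446 of the 546 (81.7%) had a MEF percentile of at least 50, and 145 (26.6%) had one of at least 90. At day 5, 354 (64.8%) were under the 50 percentile and 8 were at 75 or above. The pileup at the summit over the background of the library is another scale, on which the order in MEFs differs from that by rank. Its median over late-closing regions was 37.1 to 40.6 in MEF libraries, 12.5 to 15.7 in day 5 libraries and, where called, 13.02 to 22.1 in day 10 libraries. For kept regions it was 40.9 to 43.9 in MEFs, 22.2 to 28.9 at day 5 and 29.9 to 38.8 at day 10. The late-closing regions were below the kept regions in this ratio at each stage, MEFs included, where by rank they were above them in 3 of 4 libraries. Day 10 values cover only the regions that were called and so stand above the level of the whole set.

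The 14113 MEF-open regions called at day 5 were also ordered by their day 5 height, which helps decide whether a library calls a region and so is tied to the rule. When they were divided into 10 bins of equal size by day 5 summit pileup over background, the lowest bin held 322 late-closing regions, 22.8% of its regions. The next bins held 132, 52, 23, 15 and 2, and the upper 4 bins held 0. The median region of the lowest bin was called in 5 of 12 day 10 libraries, and most regions of that bin were not late-closing. Divided instead by MEF percentile, every bin held late-closing regions, from 3.05% to 5.95% of its regions, with the largest share in the highest bin. MEF height was used only through the 4 of 4 calls that all 14113 regions share.

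**Figure D4:**
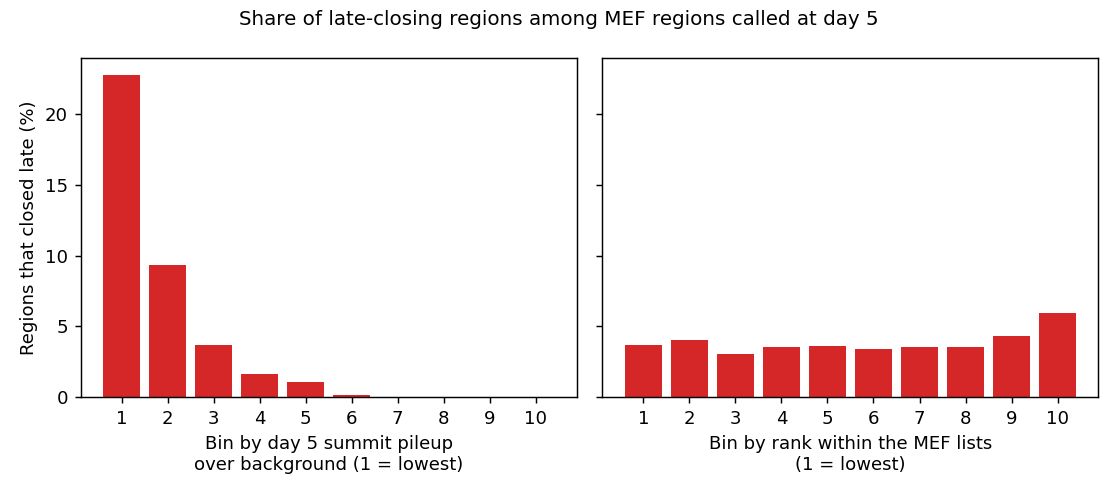
Percent of regions that were late-closing (y axis) among 14113 MEF-open regions called in at least 8 of 12 day 5 libraries, in 10 bins of equal size by day 5 summit pileup over background (left) and by MEF percentile (right), with 1 the lowest bin. The left bars stand at 22.8% in bin 1 and 0% in bins 7 to 10, while the right bars stay between 3.05% and 5.95%.

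The height in fibroblasts told little of the height at day 5 inside the set. Across the 546 late-closing regions, the MEF percentile and the day 5 percentile had a Pearson r of 0.34 and a Spearman rho of 0.32. Across 11579 kept regions r was 0.66 and rho 0.70. Regions of a list share its depth and are not independent replicates, and the late-closing set spans a narrow range of day 5 ranks by selection, so these are descriptions. The 145 regions with a MEF percentile of at least 90 had a median day 5 percentile of 49.3, and 40 of them (27.6%) were called in 0 of 12 day 10 libraries. The 100 regions with a MEF percentile under 50 had a median day 5 percentile of 35.2, and 9 of them (9%) were called in 0 of 12 day 10 libraries.

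Depth bears on whether a weak day 5 peak would be called at day 10. When each region's day 5 pileup was scaled to the background of each day 10 library, it reached the lowest pileup called at background level there in a median of 11 of 12 libraries. It did so in 12 of 12 libraries for 262 regions and in at least 8 for 542. That lowest pileup was 5 or 6 and is the minimum over called peaks, so reaching it does not mean that a peak would usually be called. Late-closing peaks that were called at day 10 had a median summit pileup of 8 to 10 per library. The day 5 pileup was the median over the libraries that called the region, which stands above the level in those that did not. Counting error around the scaled value was not modelled.

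A second view of depth kept the same number of peaks in every library, the 27809 with the highest −log10 q. The 546 regions then had calls in 428 to 459 of them per MEF library, 109 to 282 per day 5 library and 17 to 40 per day 10 library. As shares of the regions these are 78.4 to 84.1%, 19.96 to 51.6% and 3.11 to 7.33%. These lists are subsets of the calls on which the regions were chosen, so the order of the stages is set by the rule and is read as nothing more. The lists change the size of the share at each stage. Beside all peaks, the mean share fell from 100% to 81.7% in MEFs. It fell from 77.9% to 35.6% at day 5 and from 10.3% to 4.64% at day 10. Of the 546, 46 were in at least 8 of 12 day 5 libraries on these lists, 332 were in 4 of 4 MEF libraries, and 28 met the whole rule. Chosen anew on these lists, the rule gave 86 regions in place of 546. On equal lists the typical late-closing region was thus called in most MEF libraries, in about 1 in 3 day 5 libraries (mean share 35.6%) and in few day 10 libraries (mean share 4.64%).

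**Figure D5:**
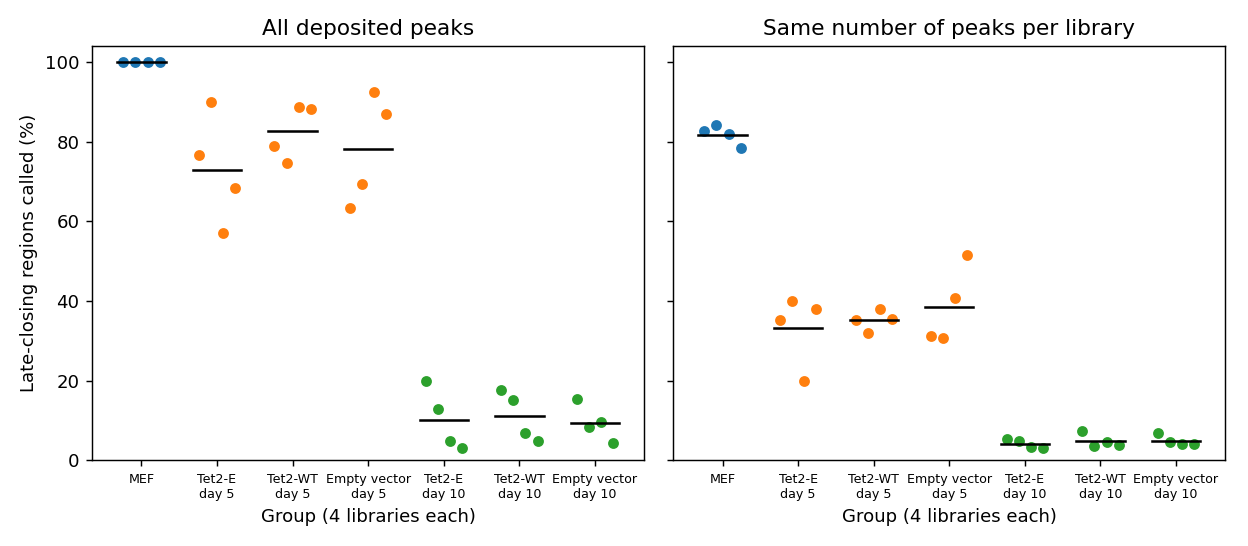
Percent of the 546 late-closing regions called by each library (points; bars are means of 4) with all deposited peaks (left) and with the 27809 peaks of highest −log10 q in every library (right). Day 5 libraries call 57.1 to 92.5% on the left and 19.96 to 51.6% on the right; day 10 libraries call 3.11 to 19.96% on the left and 3.11 to 7.33% on the right.

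The position of the summit was compared between MEFs and day 5. Both stages had to have a peak in the merged region, so overlap of their peaks follows nearly from the construction, and the distance between summits is given instead. The median day 5 summit lay within 50 bp of the median MEF summit in 406 of the 546 regions (74.4%) and over 200 bp away in 24, with 759 bp the largest distance. Summits taken library by library were a little more scattered. On average 58.5% of late-closing peaks and 61.7% of kept peaks at day 5 had their summit within 50 bp of the MEF summit, and the share was lower for late-closing regions in 11 of 12 libraries. With 100 bp as the limit the day 5 shares were 80.4% and 81.3%. In MEFs, each library set against the other MEF libraries, the order was the reverse. There 76.5% of late-closing and 68.8% of kept summits lay within 50 bp, with late-closing regions higher in 4 of 4 libraries. At day 5 the late-closing peaks were the lower ones, and the part of their height in the scatter of the summit was not tested.

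Late-closing peaks were of middling width. In MEF libraries their median width was 272.5 to 337.5 bp, against 342 to 461 bp for kept regions and 202 to 264 bp for regions closed by day 5. The late-closing peaks were narrower than the kept ones in 4 of 4 libraries, by 91.4 bp on average, and wider than those closed by day 5 in 4 of 4, by 69.9 bp (adjusted exact sign-flip p = 0.143 each, from the smallest p possible). At day 5 the called late-closing peaks were 107 to 169 bp wide, and kept peaks 273 to 343 bp. Merged over libraries, the late-closing regions had a median width of 452.5 bp and ran from 176 to 1240 bp.

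The vectors could be compared in part, since the rule treated them alike and so set no direction between them. Its limits were on calls pooled over the vectors, so a region called in most day 10 libraries of 1 vector was left out. The size of any difference was thus bounded in advance, and a small one does not show that closing was alike in the vectors. At day 5, 73.0 ± 13.8% of the late-closing regions were called in Tet2-E libraries, 82.6 ± 6.88% in Tet2-WT libraries and 78.0 ± 13.9% in Empty vector libraries (SD, n = 4 each). By day 10 this share was 10.2 ± 7.75% in Tet2-E, 11.1 ± 6.33% in Tet2-WT and 9.48 ± 4.54% in Empty vector. Tet2-E libraries were below Tet2-WT libraries at day 5 by 9.62 percentage points, the widest of the 6 differences, with a 2-sided exact permutation p of 0.286 over 4 against 4 libraries. Tet2-WT was above Empty vector by 4.58 points at day 5 (exact p = 0.571) and by 1.65 at day 10 (exact p = 0.743). Tet2-E minus Empty vector was −5.04 points at day 5 (exact p = 0.629) and 0.733 at day 10 (exact p = 0.943), and Tet2-E minus Tet2-WT was −0.916 at day 10 (exact p = 0.857). After adjustment over the 6 contrasts every p was 0.943, with 0.0286 the smallest unadjusted p this design can give. At that p, 1 contrast alone would not pass adjustment over 6. Each difference was within the spread between libraries. In each vector at day 10, the library numbered 1 called the most late-closing regions and that numbered 4 the fewest. These unpaired tests count that shared fall as spread.

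Single regions gave no call between vectors either, and the test had little room to give one. With 4 libraries per vector at each day, a region alone cannot reach a p that passes adjustment over so many regions. The limit of 2 day 10 calls raises the lowest p of a late-closing region further. The counts of 0 therefore do not show that the vectors were alike. The exact conditional test stratified by day called 0 of 74168 regions for Tet2-WT against Empty vector, 0 of 71000 for Tet2-E against Empty vector and 0 of 73329 for Tet2-E against Tet2-WT, a background of 0% in each, with 525, 340 and 404 at an unadjusted p under 0.05. Among the late-closing regions 0, 1 and 1 were under that unadjusted limit. The region for Tet2-E against Empty vector was chr5:14073131-14073463, called at day 5 in 1 of 4 Tet2-E, 4 of 4 Tet2-WT and 4 of 4 Empty vector libraries, and at day 10 in 0, 0 and 2 of 4 (unadjusted exact p = 0.0306, adjusted p = 1). The region for Tet2-E against Tet2-WT was chr1:169161092-169161398, called at day 5 in 1 of 4 Tet2-E, 4 of 4 Tet2-WT and 3 of 4 Empty vector libraries, and at day 10 in 0, 2 and 0 of 4 (unadjusted exact p = 0.0306, adjusted p = 1). Both were named after their values were seen.

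Counts of complete closing by vector are a description, since the rule used the calls of both days. A change from 4 of 4 day 5 libraries to 0 of 4 day 10 libraries was seen in 80 late-closing regions in Tet2-E, 144 in Tet2-WT and 114 in Empty vector. It was seen in no vector for 271 regions, in 1 vector for 213, in 2 for 61 and in 3 for 1, the region on chromosome 11 described above. Calls in 4 of 4 day 5 libraries were made for 141 regions in Tet2-E, 238 in Tet2-WT and 193 in Empty vector, and calls in 0 of 4 day 10 libraries for 350, 331 and 358 regions in the same order of vectors.

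The 5 late-closing regions with the highest median fold in fibroblasts are given as a description. They were picked for that value, so a lower place in the day 5 lists follows in part from the choice, and lists of different lengths show no change. They and the groups below were named after their values were seen, because the rule for named regions gave 1 region outside the dense windows. At chr8:69205087-69205649 the fold was 22.2, 21.6, 18.1 and 22.2 in the MEF libraries. The 8 day 5 libraries that called it had folds of 4.58 to 9.04, and Tet2-WT day 10 replicate 2 had 5.67. Its median percentile was above 99 in MEFs and 37.5 at day 5. At chr1:159273695-159274004 the MEF folds were 21.8, 13.9, 22.3 and 20.9, and 9 day 5 libraries had folds of 4.01 to 10.3. Only 1 of 4 Tet2-E libraries called it at day 5, with 4 of 4 Tet2-WT and 4 of 4 Empty vector libraries. In the exact conditional test stratified by day, the unadjusted p was 0.296 for Tet2-E against Empty vector and 0.571 against Tet2-WT. At chr1:14474378-14475025 the MEF folds were 21.9, 20.9, 20.3 and 16.7, with 9 day 5 libraries at 5.58 to 7.82 and 0 at day 10. The last of the 5 outside the dense windows, chr15:44007435-44007849, had MEF folds of 22.9, 18.5, 20.5 and 19.1 and a day 5 summit 0 bp from its MEF summit. With the region on chromosome 7 given below, these 5 stood at 37.5 to 66.5 by median percentile in the day 5 lists.

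At the other end stood the regions ranked highest within the day 5 lists. The highest day 5 percentile was at chr17:6164923-6165331, at 86.1, with 67.2 in MEFs. Its folds were 12.05, 6.64, 11.1 and 6.86 in MEF libraries. At day 5 they were 10.8, 11.4, 10.05 and 8.26 in Tet2-E, 9.42, 10.6, 8.81 and 8.47 in Tet2-WT, and 7.51, 8.02, 9.24 and 11.01 in Empty vector. Its summit pileup over background was 27.4 in MEFs and 20.3 at day 5, as medians over the calling libraries. At day 10 only Tet2-E replicate 2 (6.73) and Empty vector replicate 4 (5.49) called it. It was called in 12 of 12 day 5 libraries with no fold under 7.51. Next came chr17:94401196-94401805, at the 80.2 percentile at day 5 and 56.6 in MEFs, and chr10:4492715-4493223, at 78.2 and 51.1.

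The largest difference between the days, at least 11 more calling libraries at day 5 than at day 10, was shared by 26 late-closing regions. That difference is made of the calls the rule selected on, so it is given with no test. The 12 of them with the highest median day 5 fold were examined. They include chr16:90885941-90886325, called in 12 of 12 day 5 libraries and at day 10 in Empty vector replicate 1 alone, at a fold of 6.64. Its MEF folds were 6.41, 5.83, 5.22 and 7.77, and its day 5 folds ran from 4.36 to 8.50. By contrast chr4:142868122-142868831 had MEF folds of 15.5, 15.4, 14.7 and 15.8, day 5 folds of 5.61 to 8.76 in 12 of 12 libraries, and 1 call at day 10 in Tet2-WT replicate 1 at 6.98. The MEF folds of these regions, with like counts of calls at both days, differed in every MEF library.

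Late-closing regions were spread over all 20 chromosomes. Chromosome 1 held 53, the highest share of its MEF-open regions at 2.77%, and chromosome 19 held 7, the lowest at 0.904%. On X there were 9, or 1.51%. Within 100 kb of a late-closing region another late-closing region was found for 9.16%, a region closed by day 5 for 54.0% and a kept region for 68.5%. For all MEF-open regions these shares were 7.08%, 49.2% and 69.3%. Regions that share a neighbourhood are not independent, so no test is given.

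A few regions lay close together. The fixed grid of 1 Mb windows had 1 window with 4 late-closing regions, 7 with 3, 56 with 2 and 409 with 1. The window with 4, from 77 to 78 Mb on chromosome 7, held 13 MEF-open regions, of which 4 were closed by day 5 and 2 kept. Its 4 late-closing regions fell within 79.6 kb, from 77411855 to 77491478. The first, chr7:77411855-77412332, had MEF folds of 19.6, 22.0, 19.4 and 23.0, and folds of 4.91 to 9.57 in 9 day 5 libraries. The second, chr7:77449255-77449750, had 12.7, 17.4, 14.4 and 12.8 in MEFs, and 5.65 to 10.0 in 8 day 5 libraries. The others, chr7:77476576-77477060 and chr7:77491072-77491478, were weaker, with MEF folds of 5.73 to 6.498 and 4.46 to 9.56. So 2 strong and 2 weak fibroblast peaks of 1 neighbourhood met the same rule.

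Of the 7 windows with 3 late-closing regions, the rule named the first 4 in order of chromosome and start, and the tied windows on chromosomes 13, 14 and 15 are not described. The 4 lay from 169 to 170 Mb and from 196 to 197 Mb on chromosome 1, from 65 to 66 Mb on chromosome 3 and from 17 to 18 Mb on chromosome 6, and their regions spanned 442, 424, 548 and 836 kb. On chromosome 3 the strongest was chr3:65648173-65648656, with MEF folds of 15.98, 14.5, 17.96 and 13.4 and day 5 folds of 5.03 to 9.06 in 10 libraries. Beside it, chr3:65439845-65440215 had lower MEF folds of 9.76, 6.64, 7.87 and 8.99, was called in 11 of 12 day 5 libraries and in 0 of 12 at day 10. On chromosome 6, chr6:17713892-17714329 was called at day 5 in 3 of 4 Tet2-E, 4 of 4 Tet2-WT and 1 of 4 Empty vector libraries. Against Empty vector the unadjusted p of the exact conditional test was 0.143 for Tet2-WT and 0.486 for Tet2-E. The closest pair of the whole set was chr4:94772063-94772461 and chr4:94772639-94773256, whose midpoints were 686 bp apart, called in 8 and 10 day 5 libraries and in 1 day 10 library each.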

How the data were processed

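The deposited data were 28 lists of MACS2 peaks, 1 per library. The submitters' processing notes name Bowtie2, SAMtools, bedtools, MACS2 and the build mm9. For their versions and settings, for filters on reads and for a shift of cut sites, the entry is "not given in the sources used here". Each deposited list gives the authors' fold (a ratio of pileup plus 1 to local background plus 1), −log10 p and −log10 q of each peak, the summit position, and the authors' score, which is 10 times the −log10 q rounded down for nearly all peaks. The lowest deposited −log10 q was about 2 (q of 0.01). Folds, scores and p-values are the authors' and were used only within their own list. Peaks on 20 chromosomes were kept. Coordinates count from 1.

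Calls per region were compared by 2-sided exact tests over every region with calls in 2 or more of the libraries compared (Fisher's test for MEF against each day, an exact conditional test stratified by vector or by day otherwise), adjusted by the Benjamini-Hochberg method over regions. Shares per library were compared by exact permutation. Python 3.11.15, numpy 2.4.6, scipy 1.17.1 and pandas 2.3.3 were used, and the scripts for regions were tested on simulated data. Read totals were not used. Fold and p together gave whole-number pileups for 100% of peaks (tolerance 0.0002 in −log10 p), and the commonest background served as relative depth. This depth is inferred, not counted, and depends on the fragment length set by the authors.

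The members and the comparison sets were chosen with earlier results of these data known. Regions named by rule were any with calls in 12 of 12 libraries at day 5 and in 0 of 12 at day 10, and the members of the 5 windows of 1 Mb with most members, ties broken by chromosome and start. The other named regions, and the tests of rank, width and summit between sets of regions, were chosen after values were seen. Gene annotation and sequence were not used, since the tables at hand are of another build. Alternatives were an equal number of peaks per library, a q of 0.0001, cover of 50% of a region, libraries or replicate numbers left out, other limits of the rule, a replicate block, and, chosen after seeing the data, day 10 libraries by number and other summit distances. No pair of libraries held identical lists.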

Additional observations from a re-analysis of the deposited data

How the results depend on the processing

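The set depends strongly on the processing. Against 546 regions, an equal number of peaks per library gave 86 (28 of them shared, 5.13% of the 546), a q of 0.0001 or less 493 (373 shared), and a 50% cover 275 (11 shared). Limits of 12 of 12 and 0 of 12 gave 1 and looser limits 1553. Leaving out replicates or single libraries gave 318 to 755; without any 1 of 11 day 10 libraries (all but Tet2-E replicate 1) the count fell more than 1.5 times, where the limit also becomes 1 of 11. Chosen after seeing the data, day 10 libraries numbered 1 and 2 alone gave 514 and those numbered 3 and 4 gave 1187 (531 shared).

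Regions that changed between day 5 and day 10 numbered 955 in both directions, 257 with equal peaks (133 more often and 124 less often called later), 1502 with 50% cover, 1657 for regions in at least 4 libraries, and 0 without any replicate number or with day 10 libraries 1 and 2 or 3 and 4 alone. Fewer libraries also raise the lowest p this test can give. MEF against day 5 gave 25701, 15132 with equal peaks and 13747 to 16217 without a replicate. MEF against day 10 gave 25176, 14856 with equal peaks, 16090 and 15196 with day 10 libraries 1 and 2 or 3 and 4, and 14338 to 17956 without a replicate. Vectors gave 0 in each setting.

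The difference in share at day 5 for Tet2-WT minus Empty vector turned to −2.62 with equal peaks, and at day 10 Tet2-E minus Tet2-WT to 0.0909 with 50% cover. With day 10 libraries 3 and 4, Tet2-WT minus Empty vector was −1.31 and Tet2-E minus Empty vector −3.71. Leaving out libraries gave −0.850 to 8.11, −12.7 to 5.37 and −17.8 to −1.60 at day 5 for Tet2-WT minus Empty vector, Tet2-E minus Empty vector and Tet2-E minus Tet2-WT, and −0.668 to 2.80, −1.97 to 0.943 and −3.77 to 0.378 at day 10. Members were chosen anew in each setting, and none of 234 such contrasts passed (lowest adjusted p 0.514). The summit share within 100 bp differed by −0.861 points. The causes were not tested.

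Replicate numbers did not pair the libraries over all groups: correlations of same-numbered libraries across groups were −0.0185 to 0.0902, and 0 libraries correlated best with their own number in every group. Within day 10, same-numbered libraries of different vectors all correlated positively, at 0.0068 to 0.0902. Differently numbered ones there ran from −0.0789 to 0.0488. The number thus marked a weak shared structure at day 10, which the unpaired tests left out. With the replicate block, day 5 against day 10 gave 0 calls in the exact conditional test. Its lowest adjusted p was 0.244, with 7133 regions at an unadjusted p under 0.05. The block also raises the lowest p this test can give, so the 0 does not show that the changes rest on the pairing. No vector contrast changed its call (Tet2-E minus Tet2-WT in share at day 5 −9.62, exact sign-flip p = 0.375). Over so few replicate numbers the sign-flip test cannot give a p under 0.05, so the unchanged call for the shares was fixed in advance.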
